A study of Arabidopsis thaliana with 12 samples.

Results

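Histone H3 transcripts were examined in Arabidopsis thaliana wild type (WT) and in toc160, a mutant with poor protein import across the outer envelope of the chloroplast. Probes were taken by annotation without a cut on measured values, but the genes were named with earlier results of these data known. A probe counted when the platform annotation named 1 gene and that gene was AT1G13370, AT1G09200 or AT5G65360. This gave 3 loci with 1 probe each, out of 691 loci named alone by a probe and 3439 probes in all. Both genotypes were of ecotype Wassilevskija, and 6 single-channel arrays per genotype were hybridised with total RNA. Replicate numbers ran from 1 to 6 in each genotype. The labels state no tissue, age, treatment or toc160 allele, and do not say whether replicates were separate plants, so p-values measure a spread between samples that may be technical. Of 13 tissue marker genes listed for leaf, seed, root, meristem and sperm cells, 1 was named alone by a probe, the leaf antenna gene LHB1B2, so the tissue was not checked further.

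Histone H3 is one of the core histones around which nuclear DNA is wrapped, and its tail carries many of the chemical marks that set genes active or silent. Plants hold several classes of H3. The canonical H3.1 is made chiefly while DNA is being copied and is placed behind the replication fork, whereas the replacement variant H3.3 is placed outside replication and is found over transcribed genes. Levels of H3.1 transcripts therefore tend to follow the share of dividing cells in a tissue. The reference annotation used here names AT1G09200 and AT5G65360 as H3.1 genes and gives AT1G13370 no variant name. H3 genes are near-copies of one another, and whether each probe tells its gene from the relatives was not tested. In total RNA of whole samples, fewer cells that express a gene and less transcript per cell cannot be told apart.

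The arrays came as near-duplicates. The arrays of replicates 1 and 2 of a genotype, like those of 3 and 4 and of 5 and 6, ranked all probes with a Spearman correlation of 0.983 to 0.990. Other arrays of one genotype gave 0.871 to 0.945. Each pair of arrays was therefore averaged and counted once, which gave 3 pair averages per genotype. Deposited values were scaled intensities with a maximum of 100 on each of the 12 arrays. Array medians lay between 0.477 and 0.551 in WT and between 0.627 and 0.646 in toc160, so a probe can read brighter in toc160 with no change in its place among the other probes. Unless stated otherwise, log2 differences are toc160 minus WT after quantile normalization, which gives every array the same distribution. The number of arrays limits the precision.

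AT1G13370 read about 2-fold brighter in toc160 than in WT, in each of the 3 pairs of arrays. Its deposited intensity on the WT arrays of replicates 1 to 6 was 0.224, 0.219, 0.333, 0.306, 0.302 and 0.323. On the toc160 arrays it was 0.417, 0.467, 0.669, 0.600, 0.654 and 0.659. Every toc160 array was above every WT array, and replicates 1 and 2 were the lowest of both genotypes. The same lack of overlap, with toc160 higher, was seen as deposited for 123 of 691 loci (17.8%). The mean was 0.284 ± 0.0547 in WT against 0.578 ± 0.118 in toc160 (SD over n = 3 pair averages), a ratio of 2.03. The 2 arrays of a pair differed by at most 0.16 on the log2 scale, less than the genotypes did.

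**Figure D1:**
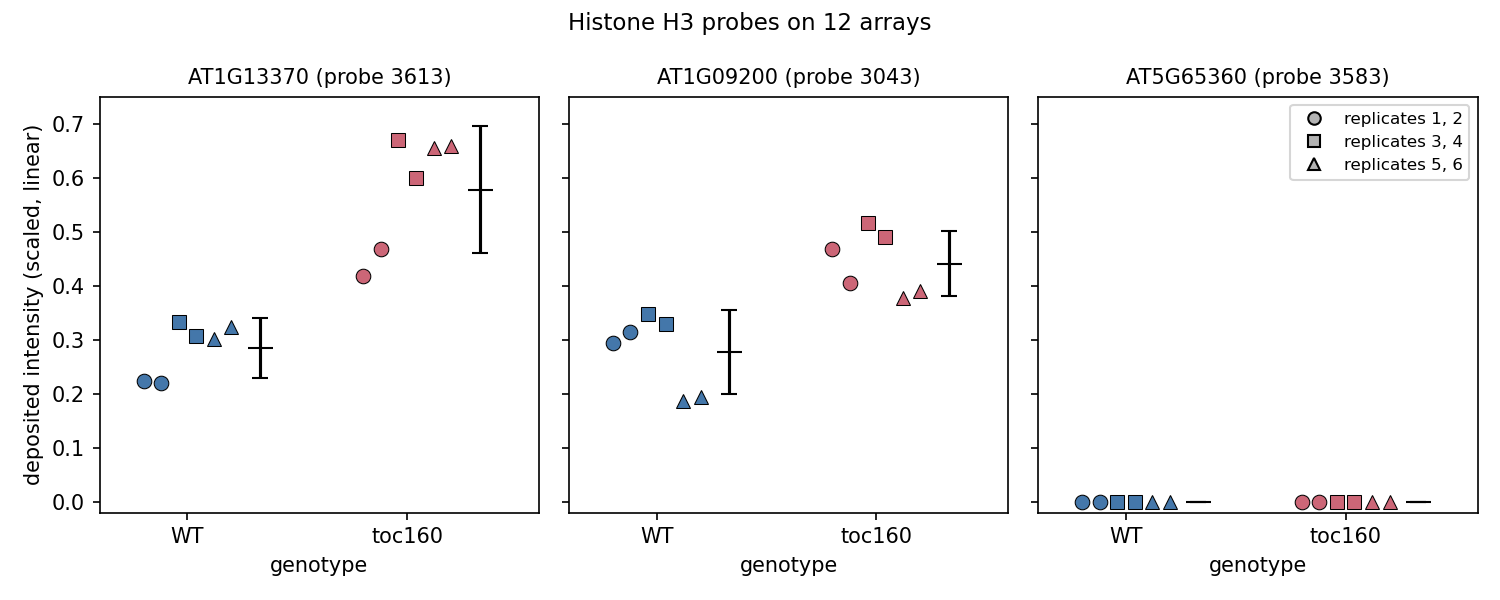
Deposited intensity (vertical axis, linear scale) of the 3 histone H3 probes on each WT and toc160 array. Points are arrays, shapes mark the pairs of near-duplicate arrays, and bars give the mean ± SD of 3 pair averages. The toc160 arrays of AT1G13370 lie from 0.417 to 0.669, above the highest WT array at 0.333, and AT5G65360 is at 0 throughout.

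Part of this ratio belonged to the higher medians of the toc160 arrays. Relative to the median of its own array, the AT1G13370 probe stood at 0.459 to 0.652 in WT and at 0.666 to 1.05 in toc160. In terms of rank, it lay between percentiles 20.5 and 31.3 of all probes on the WT arrays and between percentiles 30.3 and 52.9 on the toc160 arrays. After quantile normalization the log2 difference was 0.64 (SE 0.20, 95% interval 0.12 to 1.16) on pair averages without a block. With the pair as a block, the SE was 0.083 and the 95% interval 0.37 to 0.91. On the quantile-normalized scale 1 WT array reached above the lowest toc160 array, at -1.39 for WT replicate 3 and -1.42 for toc160 replicate 1. The difference was 0.49 in replicates 1 and 2, 0.62 in replicates 3 and 4, and 0.82 in replicates 5 and 6. As deposited the same pairs gave 0.996, 0.988 and 1.07, while the median of all loci was 0.33 as deposited and 0.03 after quantile normalization. The excess over that median was 0.62 after quantile normalization and 0.68 as deposited.

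Whether the AT1G13370 difference passed the test depended on how the pairs of arrays were treated, on the scaling and on the set of loci tested. On pair averages without a block, the limma adjusted p over all 691 loci was 0.323, a fit in which 3 loci were below 0.05 (0.434%). Blocking by pair brought the adjusted p to 0.0842 after quantile normalization, a fit that 12 loci passed (1.74%). The blocked fit passed the locus under the other scalings, with adjusted p-values of 0.0187 as deposited, 0.00332 with median centring and 0.0435 with cyclic loess. The loci passing these fits were 37%, 10.1% and 3.04% of all. With 6 arrays against 6, which counts near-duplicates as separate samples, the adjusted p was 0.0117, and 10.4% of loci passed. With the pair within a genotype as a random block, which allows for the likeness of its 2 arrays, the call was lost (adjusted p 0.0512, with 4.34% of loci passing). Without that block, 6 arrays against 6 gave 0.00255 with median centring and 0.00885 with cyclic loess, where 15.3% and 9.41% passed. Over the 639 loci without an exact 0, a filter added after the data were seen, the blocked fit gave 0.00234 and passed 15.8%. Without the dimmest 25% of loci the blocked fit gave 4.31e-05 and passed 21.4%. There the variance of each locus is drawn strongly towards a common one (27.4 prior degrees of freedom against 0.844 over all loci). The exact two-sided permutation test of the 3 against 3 pair averages gave p = 0.10, the smallest that this design allows.

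**Figure D2:**
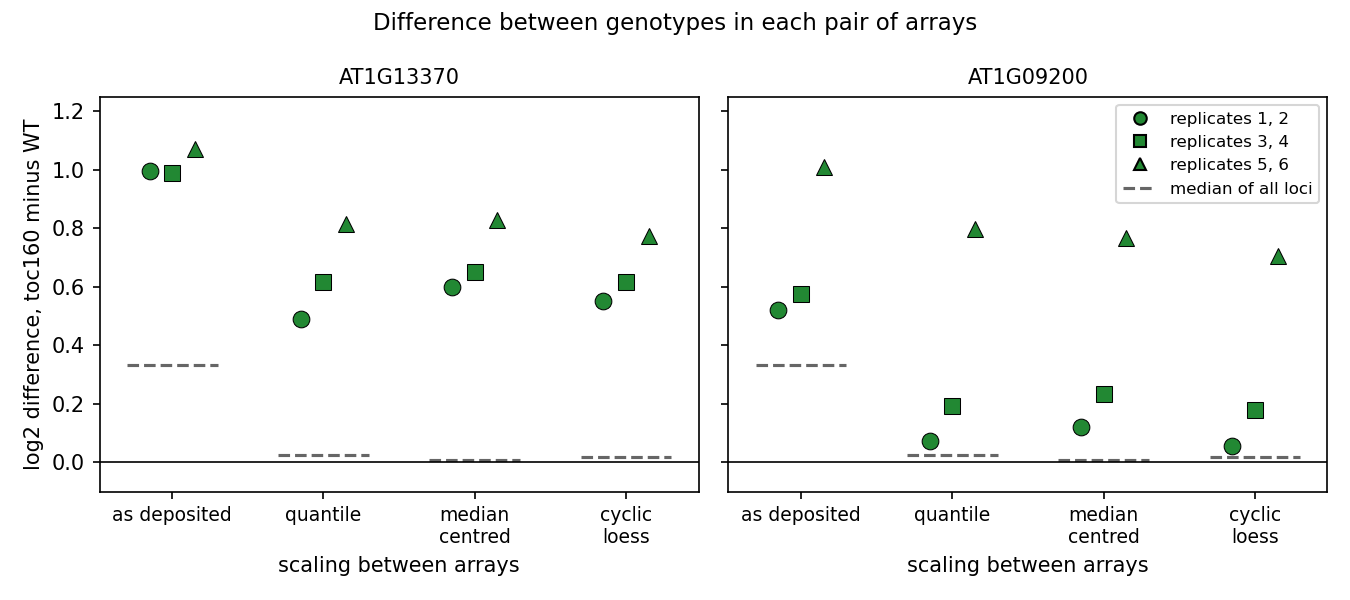
Log2 difference, toc160 minus WT (vertical axis), in each pair of near-duplicate arrays under 4 scalings (horizontal axis). Dashed lines give the median over all loci. AT1G13370 lies between 0.49 and 1.07 in every pair and scaling, whereas AT1G09200 after quantile normalization lies at 0.07 and 0.19 in 2 pairs and at 0.80 in replicates 5 and 6.

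AT1G09200, one of the H3.1 genes, showed a smaller and less even difference. Its intensity was 0.293, 0.315, 0.347, 0.329, 0.187 and 0.194 on the WT arrays of replicates 1 to 6. The toc160 arrays read 0.468, 0.404, 0.516, 0.490, 0.377 and 0.390. As deposited, no WT array reached the lowest toc160 array, as for 17.8% of loci, and replicates 5 and 6 were the lowest in both genotypes. The mean was 0.277 ± 0.0772 in WT against 0.441 ± 0.0599 in toc160 (SD over n = 3 pair averages), a ratio of 1.59. After quantile normalization the log2 difference was 0.36 (SE 0.33, 95% interval -0.50 to 1.21, without a block) and the genotypes overlapped. With the pair as a block, the SE was 0.19 and the 95% interval -0.27 to 0.98.

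The difference of AT1G09200 came mainly from 1 pair of arrays. It was 0.07 in replicates 1 and 2 and 0.19 in replicates 3 and 4, against 0.80 in replicates 5 and 6, where the WT arrays stood at percentiles 12.9 and 13.1 of all probes. Without replicates 5 and 6 the log2 difference was 0.13, with an adjusted p of 0.763 in limma and 0.290 with the pair as a block. With all pairs the limma adjusted p was 0.851, and 0.344 with the pair as a block. Of the fits run with the pair as a block, it passed as deposited (log2 difference 0.70, adjusted p 0.0442, with 37% of loci passing) and without the dimmest 25% of loci (0.0361, with 21.4% passing). In the second of these the variance of each locus is drawn strongly towards a common one, with 27.4 prior degrees of freedom against 0.844 over all loci. With 6 arrays against 6, the adjusted p was 0.407 after quantile normalization and 0.00871 as deposited, where 42.3% of loci passed.

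The H3.1 gene AT5G65360 was listed at 0 on all 6 WT and all 6 toc160 arrays. No fold change is given for it, and what the authors did that could leave an exact 0 is not stated in the labels. An exact 0 on all arrays was shared by 97 of the 3439 probes (2.82%) and by 26 of the 691 loci (3.76%). Of the 6 probes with numbers within 3 of it, 1 was also at 0 on all arrays, and the brightest averaged 1.44. The labels do not tell a low signal from a missing reading, so the value carries no comparison between the genotypes.

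Across the 2 loci with a signal, the difference of AT1G13370 exceeded that of AT1G09200 by 0.42 in both of the first pairs and by 0.02 in replicates 5 and 6. The mean of these was 0.29 ± 0.23 on the log2 scale (SD, n = 3 pairs). An exact two-sided permutation test of 3 against 3 pair averages, which ignores the pairing of the genotypes, gave p = 0.5. The smallest p that this test allows is 0.1. A difference between the loci was thus not shown. In the order of log2 differences from the highest, AT1G13370 was number 16 and AT1G09200 number 58 of 691 loci on the quantile-normalized scale. Their places were 8 and 47 both as deposited and when arrays were centred on their medians, and 13 and 78 with cyclic loess.

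**Figure D3:**
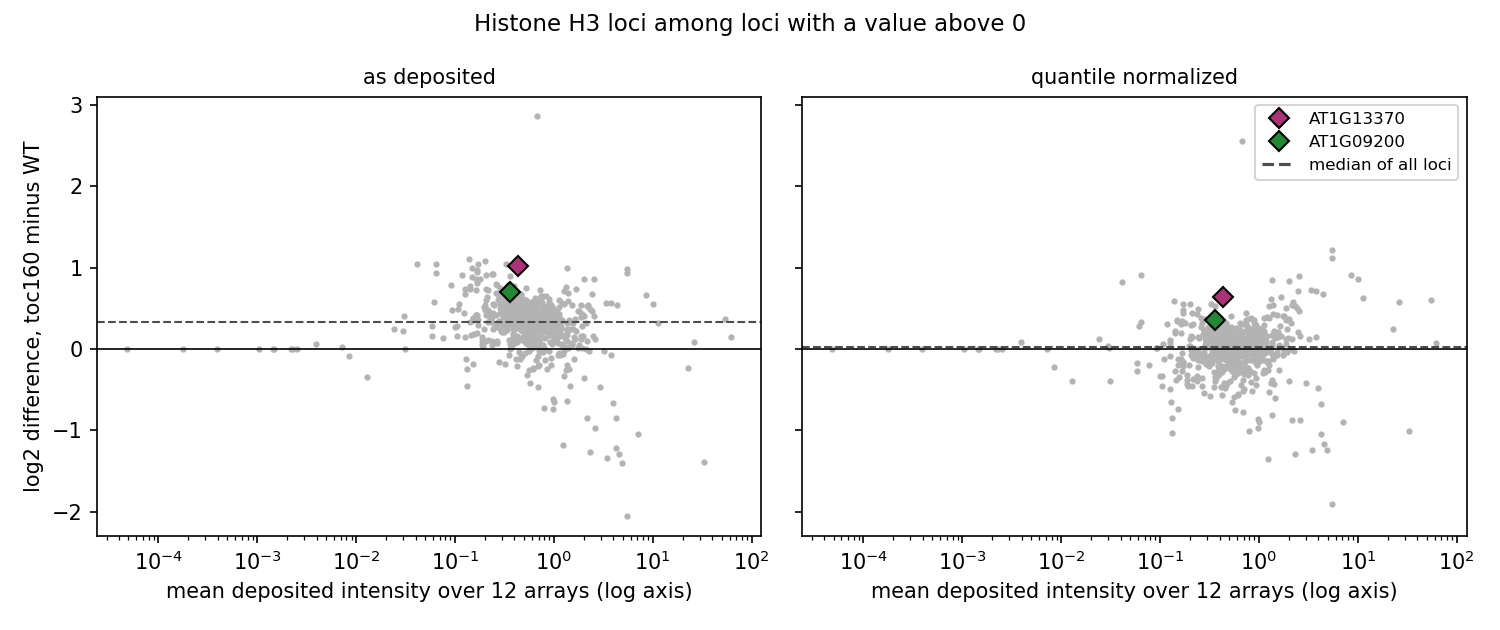
Log2 difference, toc160 minus WT (vertical axis), against mean deposited intensity over 12 arrays (horizontal axis, log scale) for loci with a value above 0, as deposited and after quantile normalization. Grey points are other loci and the dashed line is the median of all loci. Both histone H3 loci lie above that median in both panels, AT1G13370 at 1.02 and 0.64 and AT1G09200 at 0.70 and 0.36.

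The annotation held 4 further probes that each named several genes, all of them H3 genes, from which no single gene can be read. Probe 3667, whose genes are all H3.1, read 0.598 ± 0.0445 in WT against 0.939 ± 0.0401 in toc160 (SD over n = 3 pair averages), with the WT arrays from 0.531 to 0.649 and the toc160 arrays from 0.875 to 0.999. Probe 2392, whose genes are all H3.3, read 0.549 ± 0.115 and 1.11 ± 0.0544, with arrays from 0.412 to 0.665 in WT and from 1.003 to 1.22 in toc160. On both probes every toc160 array was above every WT array as deposited, as was so for 571 of all 3439 probes (16.6%). The second H3.3 probe, 3127, overlapped between genotypes, at 0.502 ± 0.146 in WT and 0.586 ± 0.169 in toc160. Probe 2995, which names genes of neither class, also overlapped, at 0.2003 ± 0.0432 and 0.278 ± 0.0749.

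After quantile normalization the 4 probes differed among themselves in sign. The log2 difference was 0.76 (SE 0.22) for probe 2392, 0.37 (SE 0.10) for 3667, 0.05 (SE 0.24) for 2995 and -0.11 (SE 0.27) for 3127. The 2 probes of H3.3 genes thus read 0.76 and -0.11. In a limma fit over all 3439 probes on pair averages, the adjusted p was 0.213 for probe 2392 and 0.161 for 3667, and 76 probes passed (2.21%). With the pair as a block these were 0.0965 and 0.103, with 185 probes passing (5.38%). As deposited, without a block, they were 0.0417 and 0.0315, where 226 probes passed (6.57%) and the median difference over all probes was 0.33. With the block, the adjusted p of probes 2392 and 3667 was 0.0270 and 0.0236 as deposited, where 1321 of 3439 probes passed. It was 0.0267 and 0.0908 with median centring (407 passing), and 0.0722 and 0.105 with cyclic loess (213 passing).

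**Figure D4:**
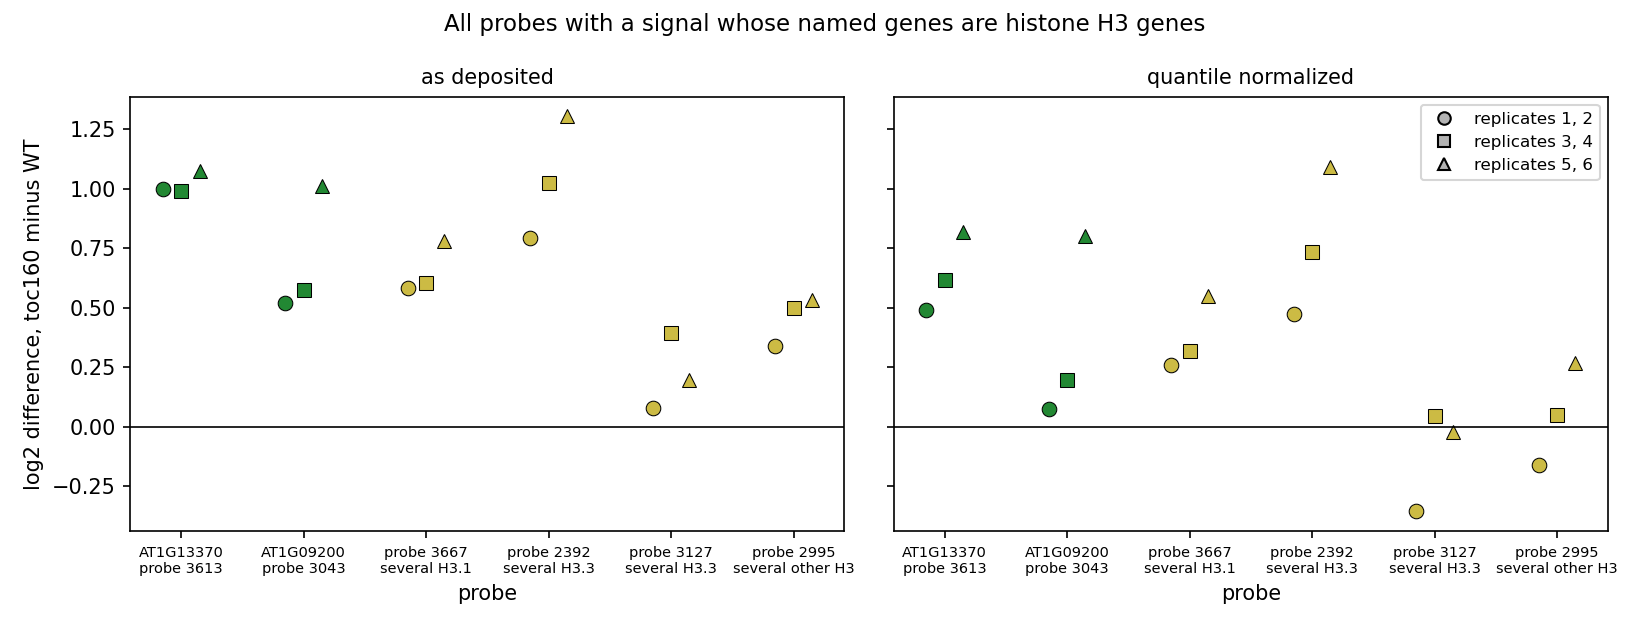
Log2 difference, toc160 minus WT (vertical axis), in each pair of near-duplicate arrays for the 6 probes with a signal whose named genes are all histone H3 genes, as deposited (left) and after quantile normalization (right). Green points are the loci named alone by a probe and yellow points are probes that name several genes. Probes 2392 and 3667 are above 0 in every pair in both panels, whereas 3127 and 2995 fall on both sides of 0 after quantile normalization.

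Genes that work with H3 were sought only among probes naming 1 gene, and probes naming several were searched for H3 genes only. Of 94 genes listed for histones H4, H2A, H2B and H1, H3 chaperones, DNA replication, mitosis and H3 modification, 0 were named alone by a probe. Of 14 genes of the H3 family listed, the 3 described above were, and 0 of these passed in the limma fit on pair averages, against 3 of 691 loci at that threshold and 77 at an unadjusted p under 0.05. AT1G13370 was among these, with an unadjusted p of 0.0251. With 6 arrays against 6, 1 of the 3 H3 loci passed, AT1G13370, against 10.4% of all loci.

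The loci with the profile most like each H3 locus were sought among 631 loci above the floor on every array, by Pearson's r of normalized log2 values over the 12 arrays, given as a measure of likeness without a test. For AT1G13370 these were AT5G11550 (r = 0.95), AT4G13680 (0.94) and AT4G17440 (0.91). AT5G11550 read 1.44 ± 0.553 in WT against 2.59 ± 0.958 in toc160 (SD over n = 3 pair averages), with a log2 difference of 0.84 (SE 0.45). AT4G13680 read 1.91 ± 0.242 in WT against 2.68 ± 0.242 in toc160, with a log2 difference of 0.53 (SE 0.11). The most opposite profile was that of AT4G32060, a gene for mitochondrial calcium uptake (r = -0.95). That locus read 4.89 ± 0.909 in WT against 1.94 ± 0.328 in toc160. For AT1G09200 the closest loci were AT2G31920 (0.95), AT1G35210 (0.94) and AT2G29870 (0.94), and the most opposite was AT5G66050 (-0.95). None of these 8 loci passed in the limma fit on pair averages, with adjusted p-values from 0.102 to 0.937. The r between AT1G13370 and AT1G09200 themselves was 0.32. All of these values share the 12 arrays, their scaling and the near-duplicate pairs.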

How the data were processed

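The authors deposited 1 linear intensity per probe and array, and the labels state neither the scanner nor any background correction or scaling. Probes were named through the platform annotation (692 named 1 gene, 870 several, 1877 none). Of the 692, 690 matched a TAIR10.1 gene by identifier. No coordinates are printed, as the arrays' genome build is unknown. Values were raised to the 1st percentile of positive intensities (0.0364), log2 transformed and quantile normalized over all 3439 probes. The probes of a locus, then the 2 arrays of each pair, were averaged, and the 691 loci were tested two-sided by limma 3.58.1 under R 4.3.3 with lmFit and eBayes. Loci passed at a Benjamini-Hochberg adjusted p under 0.05. Percentiles, exact permutation tests and likeness were computed with SciPy 1.17.1 and pandas 2.3.3 in Python 3.11.15. AT5G65360 stayed in the fit, but its fitted value is not reported.

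The replicate numbers pair the genotypes: deviations of same-numbered arrays from their genotype means correlated at 0.500 to 0.743 in all 6 pairs. The pair as a block was an alternative, as were other scalings, floors, filters and units. The fits were tested on simulated data with added differences of at least 1 log2 unit, larger than those of the H3 loci after quantile normalization. Every simulated locus varied between arrays, unlike the 26 loci at 0 throughout. Such loci and smaller differences were thus not covered. Named genes are the H3 loci, the listed loci with a probe of their own, and per H3 locus the 3 loci with the highest and the 1 with the lowest r. The members and lists were chosen with earlier results of these data known, and the probes naming several H3 genes after their names were seen.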

Additional observations from a re-analysis of the deposited data

How the results depend on the processing

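The log2 difference stayed above 0 in all 39 alternatives for both loci, from 0.51 to 1.02 for AT1G13370 and from 0.13 to 0.70 for AT1G09200. In many of them only the error model or the set of loci changed, so the estimate and its sign were repeated, not tested anew. AT1G13370 passed in 11 of the 39. At a log2 difference of 0.64 these were 6 arrays against 6 (limma adjusted p 0.0117), the replicate block by number (0.00136), the pair block without the dimmest 25% of loci (4.31e-05) or without loci with an exact 0 (0.00234), and the exact permutation test on 12 arrays (p = 0.00433). The pair block passed it as deposited (1.02), with median centring (0.69) and with cyclic loess (0.65), as did 6 arrays against 6 (adjusted p 0.000743, 0.00255 and 0.00885). AT1G09200 passed in 3: the pair block and 6 arrays against 6 as deposited (0.70), and the pair block without the dimmest loci (0.36). For both loci, 6 arrays against 6, the block by number and the permutation of 12 arrays ignore the likeness within pairs. Their p-values may therefore be too small. Prior degrees of freedom were 27.4 in the pair block without the dimmest loci and 9.33 without exact zeros, against 0.844 over all loci. The SE of AT1G13370 was 0.110 and 0.112 in these fits, against 0.083 over all loci. The smaller p-values thus did not come from a smaller SE. The permutation p of AT1G13370 was counted as a pass without adjustment, and on pair averages the exact permutation test gave p = 0.1. Leaving out single arrays or a whole pair, blocked or not, gave 0.55 to 0.72 for AT1G13370 and 0.13 to 0.50 for AT1G09200, with no pass.

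The number of loci passing was 3 on pair averages. It was 30 as deposited, 11 with median centring, 5 with the floor at the 5th percentile, 15 without the dimmest loci and 6 without loci with an exact 0. It was 72 with 6 arrays against 6, or 292 as deposited, 106 with median centring and 65 with cyclic loess, and 30 with the pair within a genotype as a random block, where AT1G13370 did not pass (adjusted p 0.0512). With the replicate block it was 12 by pair, 196 by number, and by pair 256 as deposited, 70 with median centring, 21 with cyclic loess, 111 without the dimmest loci and 101 without loci with an exact 0. It ranged from 1 (without toc160 replicate 3) to 8 (without WT replicate 5) on leaving out 1 array. Leaving out a pair gave 0 by limma with or without the block, with 47 to 167 loci at an unadjusted p under 0.05. The filter on exact zeros and the other scalings of 6 arrays against 6 were chosen after seeing the data. AT5G65360 was at 0 throughout, so its fitted values reflect the floor and the scaling alone and are not reported as differences. Its log2 value was -0.33 with median centring, which passed with 6 arrays against 6 (limma adjusted p 0.0020). Signal over background was not available, and both measured loci are dim.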

Other observations

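AT1G13370 had the highest log2 difference of the 69 loci in its decile of mean intensity (0.382 to 0.460), as 0 loci of that decile exceeded it under quantile normalization, as deposited, with median centring or with cyclic loess. The median of that decile was 0.02 after quantile normalization and 0.39 as deposited. For AT1G09200, 4 of the 69 loci in its decile (0.287 to 0.381) were higher after quantile normalization and 6 as deposited.

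The genotype difference was largest in replicates 5 and 6 on 5 of the 6 probes with a signal that name only H3 genes, after quantile normalization and as deposited alike. Of the 639 loci without an exact 0, 38.5% had their largest difference in that pair after quantile normalization and 24.3% as deposited. Among those of them higher in toc160 in all 3 pairs, the shares were 49.0% and 28%. Of the 6 H3 probes, 4 were higher in all 3 pairs after quantile normalization and 6 as deposited. The same held for 30.4% and 70.4% of the 639 loci. The median difference of the 639 loci as deposited was 0.41, 0.36 and 0.26 in the 3 pairs in the order of their numbers. This pattern was noticed after the values were seen, the probes may share target transcripts, and it was not tested.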
